A study of Caenorhabditis elegans with 8 samples.

Results

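The 37 genes described here encode proteins of the synapse, of neurotransmitter and neuropeptide pathways and of neuronal differentiation in the nematode Caenorhabditis elegans, and they were measured in worms mutant for ercc-1 and in the wild type. They were taken from a fixed list of symbols, with the probe set of highest mean standing for a gene that had several, and all 37 were found among the 17118 genes on the array. Transcript levels were read on 8 Affymetrix C. elegans Genome Arrays, 4 hybridised with total RNA of the ercc-1 mutant and 4 with that of wild type N2. N2, the standard laboratory strain, is also the background of the mutant, whose allele is not named in the labels. Both groups were mixed-stage cultures whose food over 3 to 4 days was the E. coli strain HT115(DE3) with the plasmid pL4440. ERCC-1 is part of an endonuclease of nucleotide excision repair, and the labels call the mutant deficient in that pathway. The study belongs to work on DNA repair and ageing, and the comparison asks which transcripts differ when this repair is impaired.

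Neurons release transmitter when vesicles dock at the presynaptic membrane, are primed and fuse through SNARE proteins, and the vesicle components are then recovered by endocytosis. Transmitter systems differ in their synthetic enzymes and vesicular transporters, while neuropeptides are cut from precursors inside dense-core vesicles. In C. elegans the POU factor UNC-86 and the LIM homeodomain factor MEC-3 specify the touch receptor neurons, which carry distinctive microtubules and a mechanosensory channel. The RNA came from whole worms of all stages, so fewer neurons and less transcript per neuron cannot be told apart in any value below.

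None of the 37 genes passed the test between mutant and wild type, and most read slightly above wild type on average. In limma's moderated test with Benjamini-Hochberg adjustment over all 22548 probe sets, 0 of 37 were called higher and 0 lower at an adjusted p under 0.05, where 0.672% of all genes were called (0.532% higher and 0.14% lower). The median log2 difference, mutant minus wild type, was 0.117 over the 37 genes and 0.03 over all genes, and 32 of 37 (86.5%) lay above the wild-type mean against 59.5% of all genes. The differences ran from -0.1 for unc-10 and cat-1 to 0.39 for egl-3. Without 1 array they moved between -0.188 and -0.035 for unc-10, between -0.205 and -0.008 for cat-1 and between 0.089 and 0.593 for egl-3, the lowest egl-3 value being that without mutant replicate 1. At an unadjusted p under 0.05, 4 genes (10.8%) read higher, unc-64, unc-18, cho-1 and ric-19, and 0 lower, against 8.27% and 2.24% of all genes, so the share was near that of all genes. The median was 0.033 without mutant replicate 1, and 21 genes then lay above wild type. It was 0.179 without mutant replicate 3, 0.076 without wild-type replicate 2 and 0.061 after quantile normalization. Centring each array on its own median gave 0.028 with 22 genes above, beside a median of -0.06 over all genes.

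**Figure D1:**
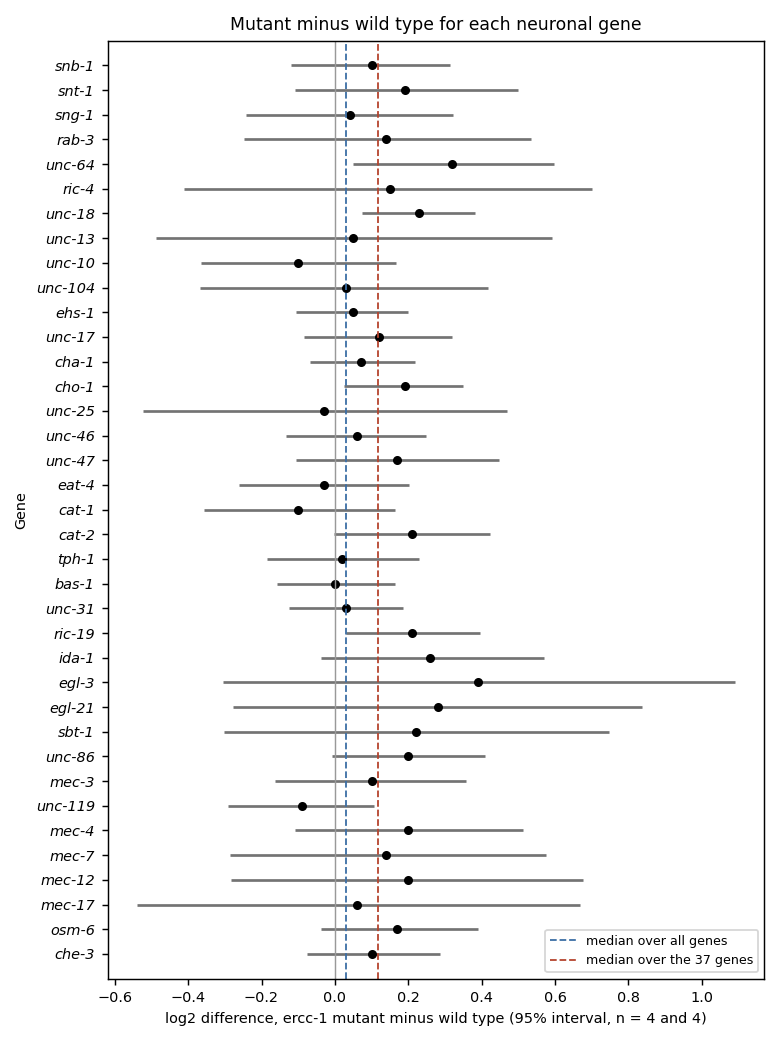
Log2 difference (x axis, mutant minus wild type) of each of the 37 genes (y axis). Points are the differences of group means, lines their 95% intervals from limma (4 arrays per group), and dashed lines the medians over all genes (0.03) and over the 37 genes (0.117). The intervals are widest for egl-3, mec-17, ric-4 and egl-21 and narrow for unc-18 and cha-1.

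These genes varied more among the mutant arrays than among the wild-type arrays, with the larger SD in the mutant for 32 of 37 (86.5%, against 67% of all genes). Over 4 arrays each, the median SD of these genes was 0.222 in mutant and 0.102 in wild-type worms, where all genes gave 0.151 and 0.111. The mutant SD was more than 2 times the wild-type SD for 19 of 37 genes (51.4%), against 29.5% of all genes. Each mutant array was therefore set against the wild-type mean on its own. The median difference of the 37 genes was 0.31 on mutant replicate 1, 0.165 on replicate 2, -0.085 on replicate 3 and -0.07 on replicate 4. The corresponding medians over all genes were 0.035, 0.037, 0 and 0.04. On wild-type replicates 1 to 4 the medians of the 37 genes were 0.035, -0.065, 0.012 and 0.03. Part of the variation ran alike in same-numbered arrays of the 2 groups. Over the 37 genes their deviations from the group means correlated at 0.573 for replicate 1, -0.065 for 2, 0.082 for 3 and 0.46 for 4. The cause was not tested.

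Mutant replicate 1 lay above all 4 wild-type values for 30 of the 37 genes, where 35% of all genes did so. Replicate 2 did so for 25 genes (29.1% of all genes), replicate 3 for 8 (24.4%) and replicate 4 for 14 (35.5%). Below all 4 wild-type values were 15 genes on replicate 3 and 13 on replicate 4, against 25% and 22.8% of all genes. On replicates 1 and 2 only 1 and 2 genes lay below (19.5% and 15.1% of all genes). Replicates 1 and 2 were both above replicates 3 and 4 for 24 of 37 genes (64.9%), a pattern seen in 25.3% of all genes. This last count was defined after the values were seen and is a description of these 4 arrays. After median centring the per-array medians were 0.143, 0.068, -0.103 and -0.147, in which replicates 1 and 2 stayed above and replicates 3 and 4 below the wild-type mean. The whole arrays also differed, since the median of all probe sets was 7.59 on mutant replicate 1 and 7.44 to 7.52 on the other mutant arrays, and 7.39 to 7.44 in wild type.

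**Figure D2:**
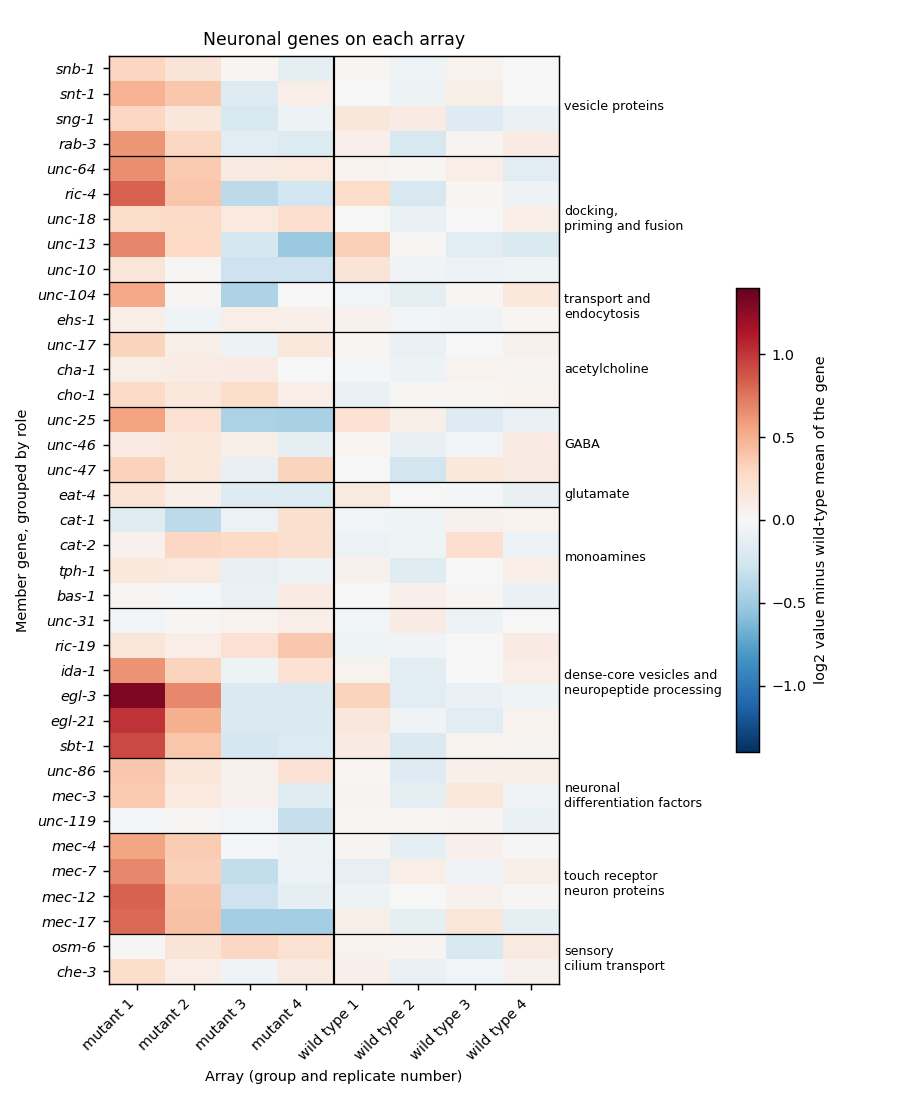
Log2 value on each array (columns) minus the wild-type mean of the gene, for the 37 genes (rows) grouped by role. Red is above and blue below the wild-type mean. The column of mutant replicate 1 is mostly red, with the highest differences at egl-3, egl-21 and sbt-1, and the columns of replicates 3 and 4 hold most of the blue cells.

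Among the proteins of the synaptic vesicle, no gene passed the test and all 4 were highest on mutant replicate 1. Replicate 1 was the highest mutant array for 73% of the 37 genes and 32.6% of all genes. The vesicle members are synaptobrevin (snb-1), the calcium sensor synaptotagmin (snt-1), synaptogyrin (sng-1) and the small GTPase rab-3. The smallest p was that of snt-1, with mutant values of 8.34, 8.23, 7.67 and 7.94 and wild-type values of 7.85, 7.78, 7.93 and 7.84 (replicates 1 to 4 in that order, here and below). Its mutant arrays thus lay on both sides of a tight wild-type group. The difference was 0.19 (SE 0.136, adjusted p = 0.718 in the limma fit). A second snt-1 probe set gave 0.05, with 7.77 and 7.56 on replicates 1 and 2 and 6.78 and 6.58 on replicates 3 and 4. The other differences were 0.1 for snb-1, 0.14 for rab-3 and 0.04 for sng-1. For rab-3 the mutant values ran from 9.38 to 10.18 and the wild-type values from 9.34 to 9.68.

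The docking, priming and fusion group held the genes with the lowest p of all 37, unc-18 and unc-64, and beside them ric-4 and unc-13, which varied widely among the mutant arrays. UNC-18 is the Munc18 protein that binds syntaxin. It read 9.03, 9.04, 8.91 and 9.01 in the mutant and 8.76, 8.68, 8.78 and 8.86 in wild type, and all mutant values were above all wild-type values. The difference was 0.23 (SE 0.0688, 95% interval 0.073 to 0.382, adjusted p = 0.265), the smallest p of the 37 genes. A second unc-18 probe set did not share this: it read 9.33, 8.87, 8.51 and 8.76 in the mutant and 8.99, 8.86, 8.75 and 8.78 in wild type, a difference of 0.02, with replicates 1 and 2 above 3 and 4.

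The syntaxin gene unc-64, a plasma membrane SNARE, read 8.76, 8.48, 8.24 and 8.25 in the mutant and 8.16, 8.13, 8.2 and 7.95 in wild type. The groups again did not overlap, although replicates 3 and 4 exceeded the highest wild-type value by little. The difference was 0.32 (SE 0.122, 95% interval 0.049 to 0.596, adjusted p = 0.404). In all, 3 of the 37 genes had groups apart in the higher direction (8.11%; unc-18, unc-64 and cho-1) and 0 in the lower, against 5.01% and 1.87% of all genes. The count was 1 after quantile normalization and 0 after median centring, for which the share of all genes is not given here. SNAP-25 (ric-4) spanned 8.63 to 9.83 in the mutant, 2.3-fold between replicates 3 and 1, around a difference of 0.15. The priming factor gene unc-13 spanned 6.57 to 7.77 around a difference of 0.05, and its other probe sets read -0.02 and 0.14. The RIM gene unc-10 differed by -0.1 and its further probe sets by -0.07 and -0.05.

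Vesicle transport and endocytosis were represented by unc-104, the kinesin that carries synaptic vesicle precursors, and ehs-1, the Eps15 homologue. They differed by 0.03 (adjusted p = 0.983) and 0.05 (adjusted p = 0.888). The ehs-1 values were 9.58, 9.43, 9.58 and 9.56 in the mutant and 9.55, 9.45, 9.44 and 9.52 in wild type, and the groups overlapped with little spread. In unc-104 the mutant arrays ran from 7.63 on replicate 3 to 8.6 on replicate 1.

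Of the cholinergic genes, cha-1 and cho-1 had mutant SDs of 0.0451 and 0.0843, and unc-17 one of 0.158, where the median over all genes was 0.151. The vesicular acetylcholine transporter unc-17 and choline acetyltransferase cha-1 are nested in 1 locus, and cho-1 is the plasma membrane choline transporter. The gene cho-1 read 6.86, 6.73, 6.83 and 6.68 in the mutant and 6.49, 6.6, 6.62 and 6.64 in wild type. Its groups did not overlap, and replicate 3 was nearly as high as replicate 1. The difference was 0.19 (SE 0.0717, 95% interval 0.026 to 0.349, adjusted p = 0.412). The differences of unc-17 and cha-1 were 0.12 (adjusted p = 0.748) and 0.07 (adjusted p = 0.782). The further unc-17 probe sets gave 0.15 and 0.18. Replicates 1 and 2 both above 3 and 4 was seen in 0 of these 3 genes.

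In the GABA group unc-47, the vesicular GABA transporter, had the smallest p. It read 8.24, 8.07, 7.81 and 8.23 in the mutant and 7.91, 7.66, 8.06 and 8.04 in wild type, so the groups overlapped. Its difference was 0.17 (SE 0.123, adjusted p = 0.731). Glutamic acid decarboxylase, unc-25, makes GABA and differed by -0.03 (adjusted p = 0.984), but its mutant values were 8.07, 7.72, 7.06 and 7.05 against 7.7, 7.58, 7.32 and 7.41 in wild type. Its mutant arrays thus lay outside the wild-type range in both directions. The transporter's partner protein unc-46 differed by 0.06, and its second probe set by -0.09. The vesicular glutamate transporter gene eat-4 read 6.42, 6.3, 6.05 and 6.04 in the mutant and 6.37, 6.23, 6.2 and 6.13 in wild type. These groups overlapped, with a difference of -0.03 (adjusted p = 0.962), and the probe set lies in the dimmest 25% of the array, which ends at 6.42.

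Of the 4 monoamine genes, 1 (tph-1) had mutant replicates 1 and 2 above replicates 3 and 4. Tyrosine hydroxylase, cat-2, which makes the dopamine precursor, read 7.22, 7.45, 7.44 and 7.39 in the mutant and 7.08, 7.1, 7.4 and 7.08 in wild type. Wild-type replicate 3 alone reached the mutant range. The difference was 0.21 (SE 0.095, 95% interval -0.003 to 0.423, adjusted p = 0.515). The vesicular monoamine transporter cat-1 was lowest on mutant replicate 2 (6.9) and highest on replicate 4 (7.49), with a difference of -0.1. Tryptophan hydroxylase tph-1, of serotonin synthesis, and the aromatic amino acid decarboxylase bas-1 differed by 0.02 and 0 (adjusted p = 0.97 and 0.995). The median of these 4 genes was 0.034 on replicate 1 and 0.169 on replicate 4.

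Genes of dense-core vesicles and peptide processing had a median SD of 0.419 over the mutant arrays, which the touch receptor genes (0.479) exceeded and the other 9 roles (0.0843 to 0.265) did not reach. The proprotein convertase egl-3, which cleaves neuropeptide precursors, read 10.51, 9.88, 9 and 9.01 in the mutant and 9.52, 9.05, 9.11 and 9.15 in wild type. Replicate 1 was 2.85-fold above replicate 3, and replicates 3 and 4 lay just under the lowest wild-type value. The mean difference of 0.39 (SE 0.31, 95% interval -0.304 to 1.089, adjusted p = 0.761) was thus smaller than the mutant SD of 0.734. A second egl-3 probe set had the same order over a smaller range, from 8.17 to 8.73.

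The carboxypeptidase egl-21, which trims the cleaved peptides, read 10.51, 10, 9.3 and 9.3 in the mutant and 9.66, 9.44, 9.34 and 9.55 in wild type. Its difference was 0.28 (adjusted p = 0.794), and 0.036 without mutant replicate 1. The 7B2 homologue sbt-1, a chaperone of the convertase, read 10.66, 10.12, 9.5 and 9.54 against 9.85, 9.53, 9.78 and 9.77. These arrays kept the order of egl-3, which it assists, with a difference of 0.22 (adjusted p = 0.831). The genes egl-3, egl-21 and sbt-1 are given array by array because of their spread, a choice made after the values were seen, as for unc-25 above and mec-12 and mec-17 below. The dense-core vesicle gene ida-1, the IA-2 homologue, differed by 0.26 on both of its probe sets (adjusted p = 0.581 on the brighter).

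The other dense-core vesicle genes behaved differently. The ICA69 homologue ric-19 read 8.42, 8.35, 8.47 and 8.63 in the mutant and 8.19, 8.21, 8.25 and 8.37 in wild type. The groups touched, since wild-type replicate 4 exceeded mutant replicate 2, and the highest mutant array was replicate 4. The difference was 0.21 (SE 0.0811, 95% interval 0.03 to 0.395, adjusted p = 0.411). The CAPS protein gene unc-31, required for dense-core vesicle release, read 5.69 to 5.82 in the mutant and 5.66 to 5.84 in wild type, in the dimmest 25% of the array, where the background level is unknown.

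**Figure D3:**
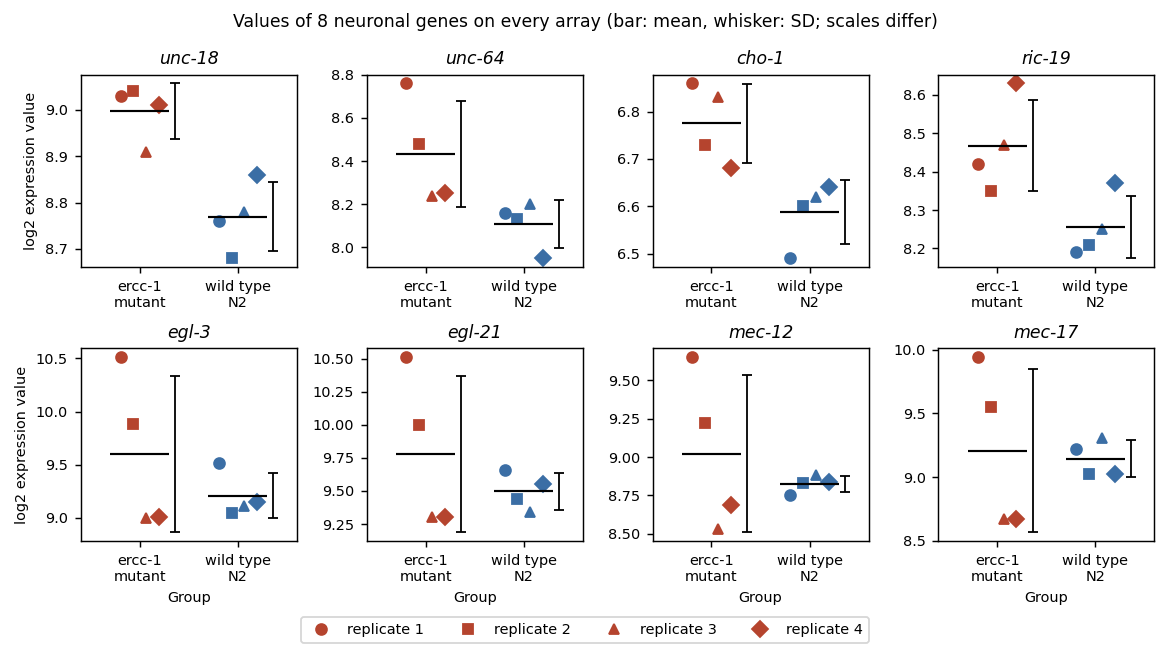
Log2 values (y axis, scale differing between panels) on every array for 8 genes, by group (x axis). Symbols mark the replicate number, bars the group means and whiskers the SD (4 arrays each). In the upper row unc-18, unc-64 and cho-1 have groups that do not overlap, and in the lower row mutant replicates 1 and 2 lie above and replicates 3 and 4 below all wild-type values.

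Of the differentiation factors, unc-86 had the smallest p. It read 8.66, 8.45, 8.34 and 8.49 in the mutant and 8.31, 8.1, 8.36 and 8.37 in wild type. Mutant replicate 3 lay inside the wild-type range and the other mutant arrays above it. The difference was 0.2 (SE 0.0929, 95% interval -0.009 to 0.409, adjusted p = 0.53). The difference of mec-3, a target and partner of UNC-86, was 0.1 (adjusted p = 0.854), with 7.59 on replicate 1 and 7.05 on replicate 4. The lipid-binding trafficking protein gene unc-119, commonly used as a pan-neuronal marker, differed by -0.09 (adjusted p = 0.811), and its mutant arrays were 8.3 to 8.35 except for 8.01 on replicate 4.

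The touch receptor genes were higher on replicates 1 and 2 than on replicates 3 and 4 in 4 of 4 members. The same held for 4 of 4 vesicle protein genes, 5 of 5 docking, priming and fusion genes and the 1 glutamate gene. It was seen in 64.9% of the 37 genes and 25.3% of all genes. The channel subunit mec-4 read 7.11, 6.92, 6.53 and 6.49 in the mutant and 6.6, 6.43, 6.63 and 6.58 in wild type. Replicates 1 and 2 were above the wild-type range and replicates 3 and 4 inside it, with a difference of 0.2 (SE 0.138, adjusted p = 0.708). The alpha-tubulin mec-12 had the largest ratio of spreads, with SDs of 0.512 among mutant and 0.0545 among wild-type arrays. It read 9.65, 9.22, 8.53 and 8.69 against 8.75, 8.83, 8.88 and 8.84, with all mutant arrays outside the wild-type range and a difference of 0.2 (adjusted p = 0.837). The tubulin acetyltransferase mec-17 read 9.94, 9.55, 8.67 and 8.67 against 9.22, 9.02, 9.31 and 9.02. Its arrays were split in the same way, and the difference was 0.06 (95% interval -0.538 to 0.668, adjusted p = 0.97). The beta-tubulin mec-7 differed by 0.14, and its second probe set, which had the same split, by 0.02. The probe sets used for all 4 touch receptor genes carry suffixes that mark possible matches to several transcripts, and tubulins are a family of similar sequence.

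**Figure D4:**
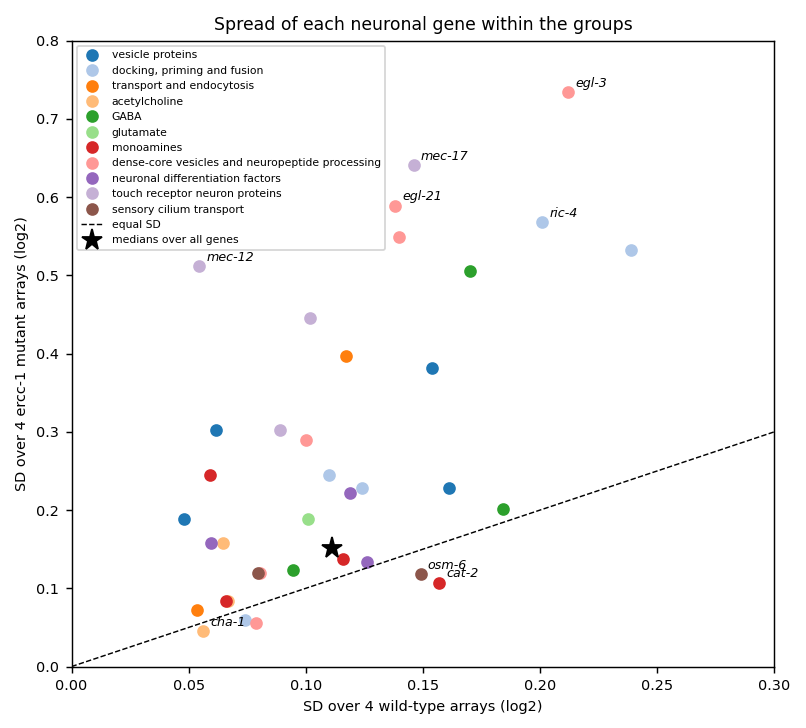
SD of each of the 37 genes over the 4 mutant arrays (y axis) against the SD over the 4 wild-type arrays (x axis), both log2 and on different scales, coloured by role. The dashed line marks equal SD and the star the medians over all genes. Of the 37 genes 32 lie above the line, with egl-3 at 0.734 highest and mec-12 farthest from the line relative to its wild-type SD.

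Mutant replicates 1 and 2 both above 3 and 4 was seen in 0 of the 2 genes of transport in sensory cilia. The intraflagellar transport subunit osm-6 read 6.97, 7.14, 7.25 and 7.17 in the mutant and 7.01, 7, 6.74 and 7.08 in wild type. Its lowest mutant array was replicate 1, the highest for most other genes, and the groups overlapped. The difference was 0.17 (SE 0.0952, adjusted p = 0.605). The cilium dynein heavy chain che-3 differed by 0.1 (adjusted p = 0.752) with mutant values of 6.72 to 7.01.

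Of the 37 genes 15 had further probe sets, 18 in all, of which 0 were called and 1, of unc-17, had an unadjusted p under 0.05. For 13 of the 15 genes all probe sets had the same sign of difference, the exceptions being unc-13 and unc-46. The highest mutant array was the same on all probe sets for 12 of the 15. The probe set used was of a kind that can match several transcripts (suffix _x_at or _s_at) for 21 of 37 genes.

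Further neuronal genes, 214 measured of 225 written into 7 lists, gave 0 calls in limma's test. At an unadjusted p under 0.05, 13 (6.07%) read higher and 1 (0.467%) lower, below the 8.27% and 2.24% of all genes. Their median difference was 0.0575, and 145 (67.8%) lay above the wild-type mean, against 59.5% of all genes. That median turned to -0.033 after median centring, -0.009 after quantile normalization and -0.008 without mutant replicate 1. On mutant replicates 1 to 4 their medians were 0.181, 0.093, -0.05 and -0.02, the order of the 37 genes at a smaller size. Replicates 1 and 2 were both above 3 and 4 for 50.5% of them, against 25.3% of all genes. By list this count was 24 of 39 synaptic release and active zone genes and 16 of 28 recycling and axonal transport genes. It was 10 of 15 peptide processing, 19 of 35 differentiation, 10 of 21 touch receptor, 16 of 35 transmitter and 15 of 43 sensory cilium genes. On replicate 1 alone the median of the cilium list was 0.105. The lists were not limited to genes specific to neurons, and daf-6 is in both the cilium and the glia list. The tubulins tba-1, tba-2, tbb-1 and tbb-2 of the touch receptor list had mutant means of 12.98 to 13.1.

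Markers of other cell types also moved between the arrays. Body wall muscle markers, 16 of 16 measured, had medians of 0.514, 0.154, -0.112 and 0.239 on mutant replicates 1 to 4, and their mean log2 level was 10.31 to 11 in the mutant and 10.38 to 10.56 in wild type. Pharynx markers (12 of 12) had medians of 0.441, 0.299, 0.1 and 0.299, with mean levels of 7.55 to 7.92 and 7.3 to 7.57. Both lists were thus highest on replicate 1, as the neuronal genes were, but were above wild type on replicate 4, where the neuronal genes were not. Glia markers (8 of 10) followed the neuronal order in their medians, at 0.271, 0.076, -0.056 and -0.049, with mean levels of 6.92 to 7.22 and 6.92 to 7.14. Replicates 1 and 2 were both above 3 and 4 for 4 of the 8 glia markers (50%), against 25.3% of all genes. Their medians on wild-type replicates 1 to 4 were 0.146, -0.034, -0.067 and 0, so replicate 1 was the highest in wild type too.

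Intestine markers (15 of 16) had medians of 0.133, 0.023, 0.08 and -0.007 on mutant replicates 1 to 4. Hypodermis and cuticle markers (12 of 14) had 0.097, 0.106, -0.099 and 0.216, highest on replicate 4. Germline and oocyte markers (18 of 18) had -0.089, -0.048, 0.021 and -0.043. The mean levels of these lists, in that order, ran from 11.89 to 12.2, 11.17 to 11.49 and 11.49 to 11.6 in the mutant. In wild type they ran from 11.97 to 12, 11.2 to 11.31 and 11.51 to 11.6. Sperm markers (19 of 19) had medians of 0.85, 0.665, 0.61 and 1.5, highest on replicate 4, with mean levels of 9.5 to 10.18 and 8.83 to 9.03. In that list 8 genes (42.1%) rose and 0 fell, led by ssp-10, msp-49, msp-50 and msp-77 (adjusted p from 0.00795 to 0.0277), where 0.532% of all genes were called higher. This list and the male neuron list hold genes that earlier results of these data had named. Their shares of called genes thus depend on that choice and are description only. The probe sets of these 8 genes all carry _x_at, a mark of possible matches to several transcripts, and without _x_at and _s_at probe sets 4 genes of the list were left, with a median of 0.382 and 0 calls. The count was 1 without any 1 wild-type array, and 6, 4, 6 and 12 without mutant replicates 1 to 4. Male neuron markers (12 of 12), with mean levels of 6.63 to 6.79 and 6.49 to 6.62, gave 1 call (8.33%), cwp-2, which rose by 0.68 (adjusted p = 0.029). It ended without any 1 wild-type array, after median centring and with the replicate block, and the list gave 0 calls without the dimmest 25% of probe sets. No marker in these lists was listed at 0 on any array. The part of these cell types in the differences of the neuronal genes was not tested.

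**Figure D5:**
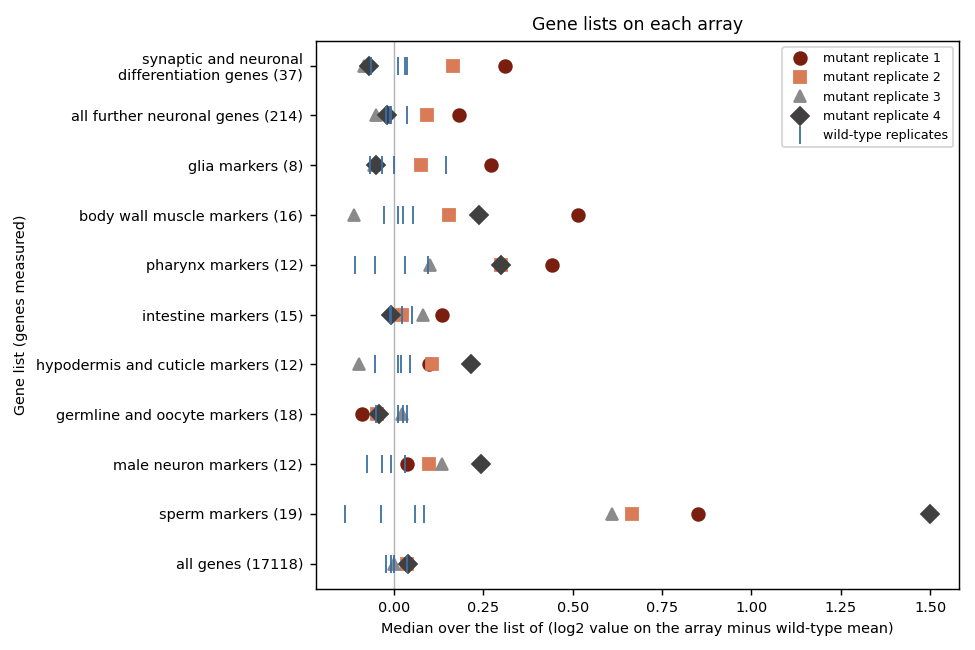
Median over each gene list (y axis, genes measured in brackets) of the log2 value on an array minus the wild-type mean of the gene (x axis). Symbols are the 4 mutant arrays and vertical ticks the 4 wild-type arrays. The 37 genes, the further neuronal genes and the glia markers have mutant replicates 1 and 2 on the right and replicates 3 and 4 on the left, while sperm markers have replicate 4 farthest right at 1.5.

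The ercc-1 probe set itself had a mutant mean of 9.84 ± 0.0737 and a wild-type mean of 9.85 ± 0.124 (SD, n = 4 each), and with the allele and probe positions unknown here it does not check the labels. Over all probe sets the correlation between arrays was lowest for mutant replicates 1 and 4 (0.9776). The mean was 0.9865 within the mutant, 0.9937 within wild type and 0.9883 between the groups. Without mutant replicates 1 and 4 the median difference of the 37 genes was 0.05, and 0 of them were called. Separate cultures for the replicates are not stated in the labels, and the p-values then cover only the spread among these samples, which may be technical.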

How the data were processed

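TRIZOL extracts of total RNA were biotin-labelled and read on 1-colour arrays, per the labels' protocols. The authors deposited 1 table of values per probe set and array, read here as log2 expression because the values run from 0 to 14.38. For the log base, summarisation and normalization the sources used here give nothing. The tool was Affymetrix Expression Console 1.1, per the submitters' processing notes. No background level was used, and the number of arrays (n = 4 per group) limits the precision.

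The platform annotation named 1 gene for 20766 of 22548 probe sets, several for 887 and none for 895. The comparison used limma 3.58.1 under R 4.3.3 (lmFit, eBayes, two-sided, no block), with p adjusted over all probe sets. The fit was tested on simulated data. The 37 genes and all lists were chosen with earlier results of these data known, and the sperm and male neuron lists hold genes those results had named. Values are given array by array for genes with an unadjusted p under 0.05, with groups apart, or with the smallest p in their role. From other lists up to 4 called genes are named. No sequences are shown.

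The alternatives were quantile normalization, median centring, filters on dim and on _x_at or _s_at probe sets, the mean over probe sets, array weights, a trended robust variance, the replicate block and leaving out each array. Leaving out mutant replicates 1 and 4 together was chosen after seeing the data.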

Additional observations from a re-analysis of the deposited data

Results flagged for a closer look

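Single arrays far from the other 3 of their group were found for 4 genes, among 75 groups of 4 values checked, where chance flags about 1 in 20. The unc-10 value on wild-type replicate 1 was 7.14, against 6.87 to 6.91 on the other wild-type arrays. The ehs-1 value on mutant replicate 2 was 9.43, against 9.56 to 9.58. The cat-2 value on wild-type replicate 3 was 7.4, against 7.08 to 7.1, and it was the wild-type value that reached the mutant range. The unc-119 value on mutant replicate 4 was 8.01, against 8.3 to 8.35. These values fall on 4 different arrays.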

How the results depend on the processing

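The 0 calls among the 37 genes held under all alternatives except array weights, where 4 were called higher (snt-1 at 0.353, unc-64 at 0.395, unc-18 at 0.258 and cat-2 at 0.297, adjusted p from 0.0268 to 0.0497). That fit called 1423 of all 22548 probe sets in either direction, in place of 150, so calls rose far beyond these genes. It gave mutant replicate 2 a weight of 5.05 and the other mutant arrays 0.32 to 0.62. Probe sets called were 46 without _x_at and _s_at probe sets, and 29 to 268 without 1 array (29 without wild-type replicate 2, 268 without mutant replicate 4). Genes with groups apart numbered 1 after quantile normalization, 0 after median centring and 1 of 20 without _x_at and _s_at probe sets. They numbered 7 without mutant replicates 1 and 4, and 3 to 9 without 1 array, where fewer arrays make this easier. The share of all genes with groups apart is not given here for these alternatives, so the counts have no background beside them. The median ranged from 0.033 to 0.179 without 1 array. Same-numbered deviations correlated at 0.473, 0.014, 0.04 and 0.201 over all probe sets, for replicates 1 to 4. Over the 37 genes the values were 0.573, -0.065, 0.082 and 0.46. Over all probe sets, both arrays numbered 1 correlated best with each other, and wild-type replicate 4 best with mutant replicate 4. Mutant replicate 4 and the arrays numbered 2 and 3 did not correlate best with their own number. The labels do not say whether same-numbered arrays shared a culture or day. With the replicate block the median stayed 0.117 and 0 genes were called.

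The sign of the difference turned in 55 of 610 values, in 18 genes, none of them called. After quantile normalization it was -0.018 for sng-1, -0.042 for unc-13, -0.067 for unc-104, -0.008 for cha-1, -0.029 for tph-1 and -0.072 for bas-1. After median centring it was -0.05 for sng-1, -0.038 for unc-13, -0.065 for unc-104, -0.042 for ehs-1, -0.015 for cha-1, -0.033 for unc-46, -0.067 for tph-1, -0.088 for bas-1, -0.06 for unc-31 and -0.025 for mec-17. The mean over probe sets gave -0.015 for unc-46. Array weights gave -0.031 for ehs-1, 0.16 for unc-25, 0.061 for eat-4, -0.017 for bas-1, -0.004 for unc-31 and 0 for unc-119. Without mutant replicates 1 and 4 the values were -0.03 for sng-1, -0.212 for unc-104, -0.058 for bas-1, -0.005 for mec-7 and -0.032 for mec-17. Without 1 array the ranges were -0.043 to 0.127 for sng-1, -0.014 to 0.253 for rab-3, -0.083 to 0.317 for ric-4, -0.157 to 0.243 for unc-13, -0.144 to 0.179 for unc-104, -0.226 to 0.114 for unc-25, -0.103 to 0.024 for eat-4, -0.033 to 0.068 for tph-1, -0.034 to 0.032 for bas-1, -0.013 to 0.374 for sbt-1, -0.03 to 0.307 for mec-7, -0.012 to 0.362 for mec-12 and -0.179 to 0.244 for mec-17. Apart from what the construction of an alternative shows, the cause was not tested. Signal over background is unknown, which limits eat-4 and unc-31.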
